A study of Rattus norvegicus with 8 samples.

Results

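The myelin and oligodendrocyte genes examined here are Mbp, Mog, Mag, Mobp, Cnp, Cldn11, Mal, Opalin and Ugt8. They were taken by exact gene symbol from the authors' table of the comparison of vehicle and corticosterone (CORT), with every transcript row of each symbol kept. All 9 symbols were found, with 14 of the 16266 transcript rows and 9 of the 13272 symbols in the table. RNAseq had been carried out on whole hippocampi of adrenalectomized (ADX) adult male rats, 4 infused with vehicle and 4 with CORT. ADX rats lack their own adrenal source of the hormone, and before the infusion both groups had recovered from surgery on low corticosterone in their drinking saline, which was then withdrawn. Vehicle rats received 0.45% saline through a jugular cannula, and CORT rats received corticosterone-2-hydroxypropyl-beta-cyclodextrin at 0.75 mg/mL in 0.45% saline, in each case for 30 min from zeitgeber time (ZT) 2. Tissue was taken 2 h after the infusion began. The labels give an age of 3 to 4 months and the strain as Sprague-Dawley, whereas the methods of the study name Lister hooded rats and a younger age. The vehicle libraries carry the word untreated in their titles.

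Levels are FPKM, fragments per kilobase of transcript scaled to mapped fragments, with the authors' geometric normalization between libraries. They can be compared between genes of different length. The authors' table has 1 FPKM value for each group and transcript. No value for a single rat was used, so no spread between rats and no test of a difference is given, and the depth behind each value is unknown. A difference below is therefore a description of 2 group values, set beside the same measure over all transcript rows.

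Oligodendrocytes wrap axons in myelin, a stack of tightly packed membrane that speeds conduction and supports the axon. In the hippocampus most myelin lies in the alveus, fimbria and perforant path, with thinner coverage among the cell layers. Mbp and Mobp are basic proteins on the cytoplasmic face of the membrane, where Mbp holds adjacent layers together. Cnp, a cyclic nucleotide phosphodiesterase, keeps cytoplasmic channels open within the sheath. Mag sits on the innermost wrap facing the axon and Mog on the outermost surface. Cldn11 forms the tight junctions between layers, Mal is a proteolipid of membrane rafts and sorting, Opalin is a transmembrane glycoprotein of myelinating oligodendrocytes, and Ugt8 makes galactosylceramide, a main lipid of myelin.

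The sequence before the start site is shown for Opalin, which had the lowest ratio of CORT to vehicle, for Mal, which had the highest ratio among the 9 genes by their highest rows, and for Mobp, whose window held the most Sox-type boxes. These 3 were chosen after their values were seen. Sox10, the main transcription factor of the lineage, binds short boxes of this type. Sequences are from RefSeq on the GRCr8 assembly, a different build from the rn6 coordinates of the expression table, and each is the 250 bases before the start, written 5′ to 3′ on the strand of the gene. Capitals mark ACAAAG or ACAATG on either strand, so that a box on the opposite strand reads CTTTGT or CATTGT.

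Opalin, chr1:249858191-249858440, minus strand: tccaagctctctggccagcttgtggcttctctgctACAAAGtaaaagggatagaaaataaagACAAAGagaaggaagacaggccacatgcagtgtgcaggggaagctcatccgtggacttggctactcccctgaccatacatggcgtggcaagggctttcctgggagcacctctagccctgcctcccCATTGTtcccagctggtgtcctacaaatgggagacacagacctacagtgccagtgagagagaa

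Mobp, chr8:128746982-128747231, plus strand: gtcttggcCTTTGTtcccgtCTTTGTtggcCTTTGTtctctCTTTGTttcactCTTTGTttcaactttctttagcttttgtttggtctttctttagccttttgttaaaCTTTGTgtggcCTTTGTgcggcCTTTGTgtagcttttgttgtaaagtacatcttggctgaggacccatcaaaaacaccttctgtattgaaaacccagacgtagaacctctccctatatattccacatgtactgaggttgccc

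Mal, chr3:135341424-135341673, minus strand: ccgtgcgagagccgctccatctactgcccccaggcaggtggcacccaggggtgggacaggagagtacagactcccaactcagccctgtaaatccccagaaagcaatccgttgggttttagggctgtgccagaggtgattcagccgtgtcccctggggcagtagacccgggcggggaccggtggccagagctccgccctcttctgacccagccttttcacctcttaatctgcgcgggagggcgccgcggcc

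A RefSeq promoter entry was matched for 8 of the 9 genes, and Mbp had entries at 2 starts; Mog had none. The Opalin window held 3 boxes, 2 of them ACAAAG and 1 ACAATG. The Mobp window held 8, all ACAAAG and all on the opposite strand, and the Mal window held none. One of the Mbp windows held 3 boxes and the other none, Cnp and Mag held 1 each, and Cldn11 and Ugt8 held none. Over all 33469 promoter windows of this length, 25.3% held a box of either kind, 0.633% held 3 or more and 0.00598% held 8 or more. The core AGAACA bound by the glucocorticoid receptor, searched on both strands, was present for 2 of the 8 genes, once in a window of Mbp and once in that of Mobp, against 17.5% of all windows. The palindromic glucocorticoid response element, AGAACA and TGTTCT separated by any 3 bases, was in none of these windows and in 0.0120% of all windows. These matches describe letters in one window per start and say nothing of binding.

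The highest row of each of the 9 genes lay well above the median row of the table, which was at 9.22 FPKM in vehicle and 9.38 FPKM in CORT rats. Summed over their rows, the 9 genes were at 5905 FPKM in vehicle rats and 4816 FPKM in CORT rats, 1.23-fold lower with CORT. By the highest row of each gene, 8 of the 9 were lower with CORT, whereas 45.0% of all 16266 rows were lower. The exception was Mal, whose ratio was close to 1 and lay just below it under the other scalings described with that gene. The median log2 ratio of CORT over vehicle was -0.25 for the 9 genes and 0.02 over all rows. In bulk tissue, fewer oligodendrocytes and less RNA in each of them cannot be told apart.

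**Figure D1:**
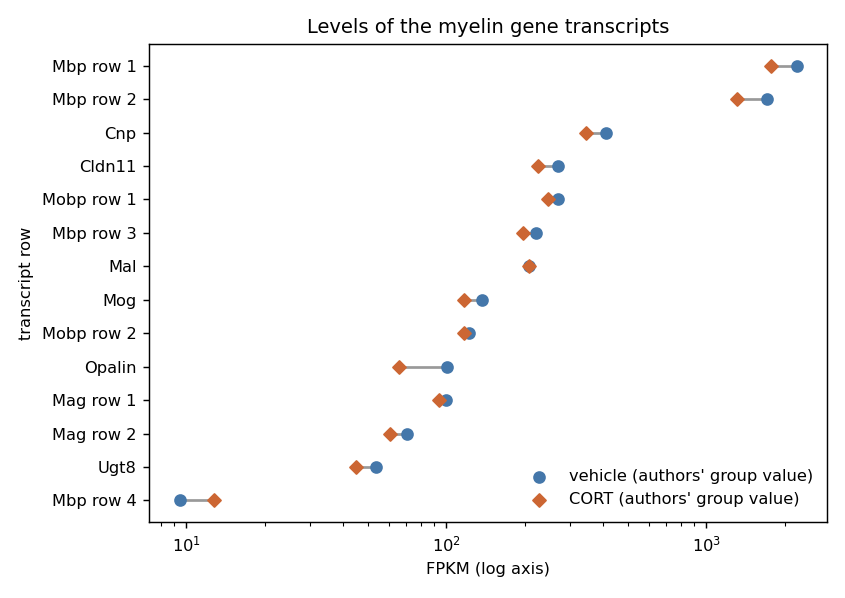
FPKM on a log axis for each of the 14 transcript rows of the 9 myelin genes, with the authors' vehicle value as a circle and their CORT value as a diamond, joined by a line. The CORT value lies to the left of the vehicle value in 12 rows. The 2 highest Mbp rows stand far above the rest, the lowest row, also of Mbp, has it to the right, and the values of Mal nearly coincide.

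Among the proteins of compact myelin, Mbp dominated. Its 4 transcript rows, on chromosome 18 of rn6 between 79326737 and 79437310, summed to 4162 FPKM in vehicle rats and 3290 FPKM in CORT rats, a log2 ratio of -0.34. The highest row, ENSRNOT00000058295.5, was at 2226 FPKM in vehicle rats and 1772 FPKM in CORT rats, which made it the 18th and 22nd highest of all rows. The second, ENSRNOT00000022280.5, was at 1705 and 1308 FPKM in the same order, a log2 ratio of -0.38. Both were more than 1.2-fold lower with CORT, the limit used here for a difference of size, which 13.3% of all rows reached in this direction. Mbp made up 70.5% of the summed FPKM of the 9 genes with vehicle and 68.3% with CORT. Of the net difference of -1088 FPKM over the 9 genes, Mbp accounted for 80.1%. Without Mbp, the other 8 genes summed to 1742 FPKM in vehicle rats and 1526 FPKM in CORT rats, 1.14-fold lower with CORT.

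The minor rows of Mbp did not follow the major ones in proportion. ENSRNOT00000058296.5 was at 222 FPKM in vehicle rats and 198 FPKM in CORT rats, a log2 ratio of -0.17. The lowest row, ENSRNOT00000089879.1, was higher with CORT, at 9.45 FPKM in vehicle rats and 12.8 FPKM in CORT rats, a log2 ratio of 0.43. It was 0.227% of the summed Mbp FPKM with vehicle and 0.388% with CORT, and the shares of the 2 major rows moved little, from 53.5% to 53.8% and from 41.0% to 39.8%. Reads common to several transcripts of a gene were divided between rows by the authors' model, so a row is an estimate and a minor row the least certain of them.

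Mobp, the other basic protein, had 2 rows on chromosome 8 between 128824507 and 128850358. ENSRNOT00000025279.5 was at 269 FPKM in vehicle rats and 247 FPKM in CORT rats, and ENSRNOT00000025343.8 was at 122 and 117 FPKM. Their log2 ratios were -0.12 and -0.07, so both rows of Mobp differed between groups by less than those of the major Mbp transcripts. With rows summed, Mobp and Cnp exchanged places in the order of levels. Mobp was the third highest in vehicle and the second highest in CORT rats, at 391 and 363 FPKM, and Cnp the reverse, at 413 and 346 FPKM. The other 7 genes kept their place, in the order Mbp first, then Cldn11, Mal, Mag, Mog, Opalin and Ugt8 from the fourth down. Without a spread between rats it cannot be said which neighbours in this order differ, and Mobp and Cnp were within 1.1-fold of each other in both groups.

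**Figure D2:**
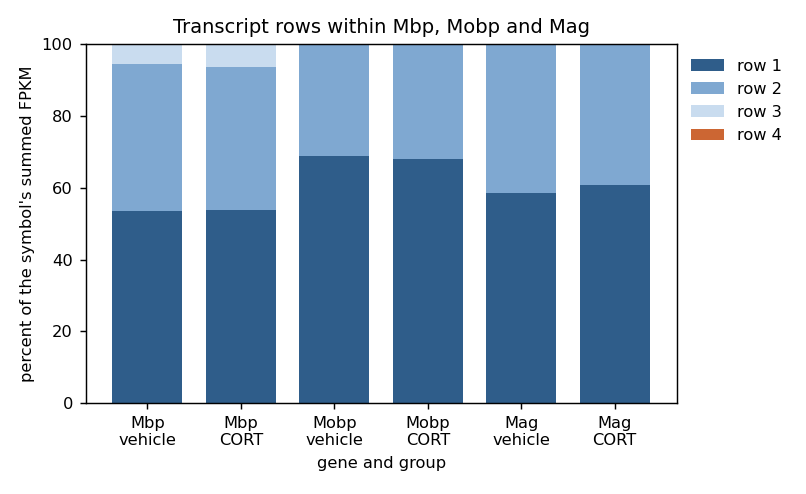
Stacked bars of the percent of each gene's summed FPKM that fell in each of its transcript rows, for Mbp, Mobp and Mag in the vehicle and CORT groups. The bars of a gene are nearly alike in both groups, with row 1 of Mbp at 53.5% and 53.8%, and the fourth Mbp row is too small to see.

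The enzymes and the junction protein had closely similar ratios. Cnp, on chromosome 10 between 88490797 and 88497356, was at 413 FPKM in vehicle rats and 346 FPKM in CORT rats, 1.19-fold lower with CORT. Cldn11, on chromosome 2 between 115823537 and 115836846, was at 269 FPKM in vehicle rats and 226 FPKM in CORT rats, also 1.19-fold lower. Ugt8, on chromosome 2 between 229644381 and 229718659, had the lowest level of the 9 genes, at 53.6 FPKM in vehicle rats and 44.8 FPKM in CORT rats, a log2 ratio of -0.26. The log2 ratios of these 3 genes lay between -0.26 and -0.25. All 3 stopped just short of the 1.2-fold limit, which therefore divides genes of nearly equal ratio.

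The surface proteins spanned a wider range. Mog, on chromosome 20 between 2004051 and 2025767, was at 137 FPKM in vehicle rats and 117 FPKM in CORT rats, a log2 ratio of -0.23. The same interval in the table also carries Zfp57, at 11.5 FPKM in vehicle rats and 11.2 FPKM in CORT rats, and Rn60_20_0041.3, at 1.73 and 2.28 FPKM, so the interval reaches beyond Mog itself. Whether the counting used strand is not given in the sources used here. Mag had 2 rows on chromosome 1 between 89345428 and 89360733, ENSRNOT00000044532.5 at 99.6 FPKM in vehicle rats and 93.8 FPKM in CORT rats, and ENSRNOT00000028544.5 at 70.9 and 60.9 FPKM. Their log2 ratios were -0.09 and -0.22. The second row was 41.6% of the Mag sum with vehicle and 39.3% with CORT.

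Opalin had the lowest ratio of the 14 rows. On chromosome 1 between 260324027 and 260341723, it was at 101 FPKM in vehicle rats and 65.8 FPKM in CORT rats, a log2 ratio of -0.61 or 1.53-fold lower with CORT. Its place among all rows went from 881st highest with vehicle to 1524th with CORT. Of all rows, 4.66% had a lower ratio than Opalin. Among rows with a mean FPKM of at least that of Ugt8, the share was 0.964%. Opalin was the single gene of the 9 past a 1.5-fold limit, which 4.91% of all rows reached in this direction. None of the 9 was 2-fold lower, against 2.03% of all rows.

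Mal had nearly the same value in both groups. On chromosome 3 between 120209646 and 120233655, it was at 207 FPKM in vehicle rats and 208 FPKM in CORT rats. Its log2 ratio was 0.0069, and became -0.016 when centred on the median of all rows, -0.083 when the groups were rescaled to equal totals over all rows and -0.00015 when structural RNA rows were left out of that rescaling. Mal made up 3.51% of the summed FPKM of the 9 genes with vehicle and 4.33% with CORT.

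**Figure D3:**
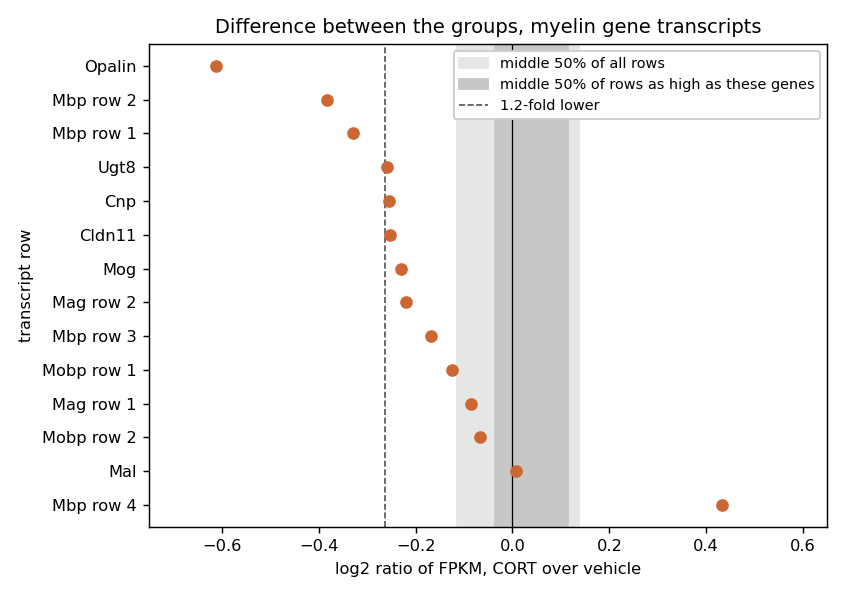
Log2 ratio of FPKM, CORT over vehicle, for each of the 14 transcript rows, with the middle 50% of all rows in light grey, that of rows at least as high as the lowest of the 9 genes in darker grey, and 1.2-fold lower as a dashed line. Opalin and the 2 major Mbp rows lie left of the dashed line, Cnp, Cldn11 and Ugt8 lie just right of it, and the fourth Mbp row lies far to the right.

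Highly expressed transcripts had a narrower range of ratios, so the 9 genes were also set beside rows of similar level. Over all rows the middle 50% of log2 ratios lay between -0.11 and 0.14. Over the 2075 rows with a mean of at least that of Ugt8, the median log2 ratio was 0.04, with the middle 50% between -0.04 and 0.12. Of these rows, 34.6% were lower with CORT and 3.42% were at least 1.2-fold lower. By their highest rows, 2 of the 9 genes, Mbp and Opalin, were at least 1.2-fold lower with CORT, and none was 1.2-fold higher, against 13.3% and 12.3% of all rows. The first count was 5 when ratios were centred on the median of all rows, against 14.5% of all rows, and 6 when the groups were rescaled to equal totals over all rows, against 19.1%. With a limit of 1.1-fold, 6 of the 9 were lower, against 22.3% of all rows. Counted by row, 3 of the 14 were at least 1.2-fold lower and 1, the lowest Mbp row, was at least 1.2-fold higher. Because the genes were chosen with earlier results of these data known, these counts are a description.

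Other genes of mature oligodendrocytes were examined from a list chosen with earlier results of these data known, of which 28 of 30 had a row. With CORT, 24 of the 28 were lower, 9 were at least 1.2-fold lower and 1 at least 1.2-fold higher. The shares of all rows in the same order were 45.0%, 13.3% and 12.3%. The median log2 ratio of the 28 genes was -0.20. Car2, a carbonic anhydrase, went from 262 FPKM with vehicle to 227 FPKM with CORT, and Plekhb1 from 263 to 224 FPKM. Qdpr, an enzyme that recycles tetrahydrobiopterin, was at 231 and 219 FPKM. The lowest ratio among genes of at least 1 FPKM in both groups was that of Adamts4, a secreted metalloproteinase, at 9.18 FPKM in vehicle rats and 6.16 FPKM in CORT rats. Aspa, which breaks down N-acetylaspartate for lipid synthesis, had the highest, at 15.1 FPKM in vehicle rats and 24.5 FPKM in CORT rats, a log2 ratio of 0.70. Aspa has 2 rows, and these values are an estimate for the higher row alone.

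All 12 genes of myelin sphingolipid synthesis, breakdown and transfer examined beside Ugt8 were lower with CORT, 4 of them at least 1.2-fold. Among all rows, 45.0% were lower and 13.3% at least 1.2-fold lower. The median log2 ratio of the 12 was -0.20, and the highest, -0.0027, was nearly equal between the groups. Gal3st1, which turns the product of Ugt8 into sulfatide, was at 8.40 FPKM in vehicle rats and 6.15 FPKM in CORT rats, a log2 ratio of -0.45. Gltp, a glycolipid transfer protein, was at 50.1 and 38.8 FPKM, and Cers2, a ceramide synthase for very long acyl chains, was at 45.9 and 37.7 FPKM. Degs1 and Elovl1, which act in ceramide and long-chain fatty acid synthesis, had log2 ratios of -0.07 and -0.19.

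The transcription factors of the lineage did not share one direction. Of 9 with a row, 6 were lower with CORT, 4 of them at least 1.2-fold. The other 3 were higher, or 1 when rescaled to equal totals over all rows. Among all rows, 45.0% were lower and 13.3% at least 1.2-fold lower. The median log2 ratio of the 9 factors was -0.03. Sox10 was at 30.0 FPKM in vehicle rats and 23.8 FPKM in CORT rats, a log2 ratio of -0.33. Myrf, which switches on myelin genes at differentiation, was at 29.2 and 29.1 FPKM, a log2 ratio of -0.0049. Olig1 was at 87.2 FPKM in vehicle rats and 90.3 FPKM in CORT rats, a log2 ratio of 0.05 that became -0.04 when rescaled to equal totals over all rows. Olig2 was at 15.2 and 18.0 FPKM, a log2 ratio of 0.25. Nkx2-2 had the lowest ratio, -1.23, on the low values of 3.37 and 1.44 FPKM.

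Taken as a single list, genes of oligodendrocyte precursor and newly forming cells had a smaller median difference than the myelin genes. The list pools these stages, and no median was taken for either stage alone. Of 13 with a row, 10 were lower with CORT, 3 at least 1.2-fold lower and 1 at least 1.2-fold higher. The shares of all rows in the same order were 45.0%, 13.3% and 12.3%. The median log2 ratio of the 13 genes was -0.10. Bcas1, a gene of newly myelinating cells, was at 140 FPKM in vehicle rats and 113 FPKM in CORT rats, a log2 ratio of -0.31. Cspg5 was at 84.1 and 81.9 FPKM, Fyn at 41.0 and 37.5 FPKM, and Ptprz1 at 34.5 and 32.2 FPKM. Bmp4 had the lowest log2 ratio, -0.39, and Sox6 the highest, 0.34, at 1.18 FPKM in vehicle rats and 1.49 FPKM in CORT rats.

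**Figure D4:**
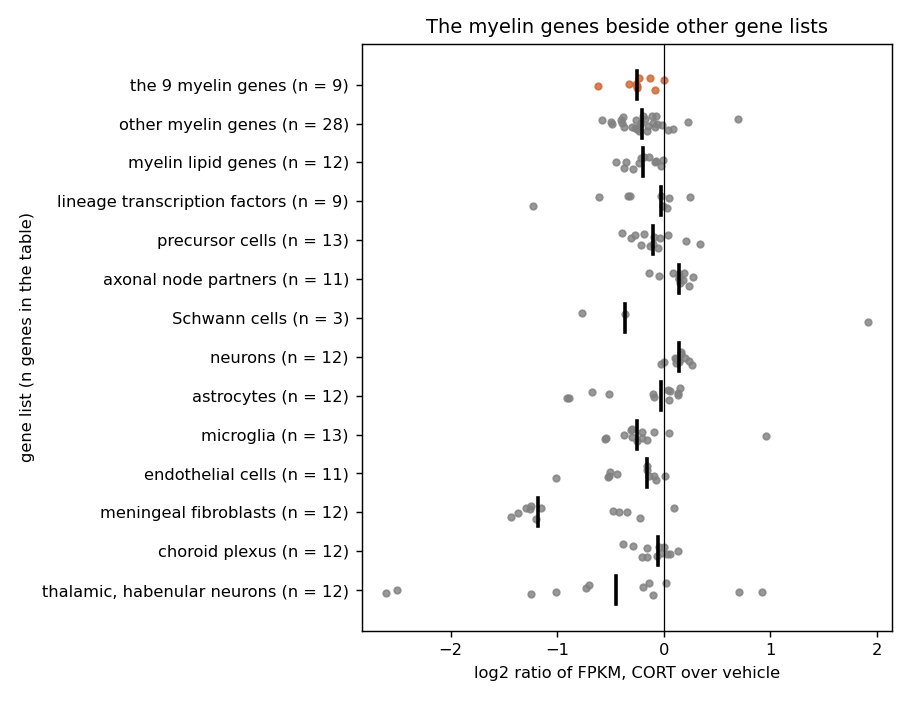
Log2 ratio of FPKM, CORT over vehicle, for each gene with a row in the table, by gene list, with the 9 myelin genes in colour, the other lists in grey and a black bar at the median of each list. The medians of the 9 genes, the other myelin genes and the lipid genes lie between -0.25 and -0.20, and that of microglia at -0.25. Those of neurons and axonal partners lie at 0.14 and 0.15, and that of meningeal fibroblasts at -1.18.

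The genes of axonal proteins that meet myelin at and beside the node of Ranvier lay on the other side of 0 by their median. Of 11 with a row, 9 were higher with CORT, or 8 when rescaled to equal totals over all rows. Before rescaling 2 were lower, against 45.0% of all rows. By the 1.2-fold limit 1 was higher and none lower, against 12.3% and 13.3% of all rows. The median log2 ratio of the 11 genes was 0.15, or 0.06 on the rescaled values. Cntnap1, the paranodal protein of the axon, was at 63.8 FPKM in vehicle rats and 70.7 FPKM in CORT rats, and Cntn1, which binds it, at 81.3 and 92.7 FPKM. Scn8a, the sodium channel of the mature node, had the highest log2 ratio, 0.27, and Ank3, the scaffold of the node, the lowest, -0.14. Neuronal markers had a median log2 ratio of 0.14, or 0.05 on the rescaled values, with 11 of 12 higher with CORT, or 10 of 12. Their summed level was 4139 FPKM in vehicle rats and 4413 FPKM in CORT rats.

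Markers of other cells in or beside the dissected hippocampus also had unequal values in the 2 groups. For the counts below, 45.0% of all rows were lower with CORT. Meningeal fibroblast markers had a median log2 ratio of -1.18, with 11 of 12 lower, and summed to 154 FPKM in vehicle rats and 111 FPKM in CORT rats. Thalamic and habenular markers, of a region that adjoins the fimbria, had a median of -0.45, with 9 of 12 lower, and summed to 79.0 and 58.8 FPKM. The median was -0.25 for 13 microglial markers, with 11 lower, and -0.16 for 11 endothelial markers, with 10 lower. It was -0.05 for 12 choroid plexus markers, with 9 lower, and -0.03 for 12 astrocyte markers. Of the astrocyte markers 6 were higher and 6 lower with CORT, or 3 higher when rescaled to equal totals over all rows. Of the 4 most abundant, S100b was at 1066 FPKM in vehicle rats and 1095 FPKM in CORT rats, Gfap at 970 and 517 FPKM, Glul at 577 and 598 FPKM, and Aldoc at 501 and 557 FPKM. Enpp2 is in both the myelin and the choroid plexus list. Of 8 Schwann cell markers 3 had a row, 2 lower and 1 higher with CORT, and Prx and Pmp2 were among those with none. Pmp22, which other cells also express, was at 39.2 FPKM in vehicle rats and 30.4 FPKM in CORT rats. Its log2 ratio of -0.36 was the median of the 3. Sox2 had a log2 ratio of -0.76, and Egr2 one of 1.92 on the low values of 0.312 and 1.18 FPKM. Whether the values of any of these 3 genes come from Schwann cells was not tested. The part of these tissues, or of the amount of adjoining white matter taken at dissection, in the values of the myelin genes was not tested.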

How the data were processed

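RNAseq libraries were made from whole hippocampi of 8 ADX rats with a stranded Illumina protocol. Per the labels, the submitters' processing notes name CASAVA 1.8.2, TopHat2 2.0.10, Cuffdiff 2.2.0 and rn6. The authors estimated FPKM for each Ensembl transcript with Cufflinks, using geometric normalization between libraries, at least 10 alignments per transcript, and corrections for multi-mapped reads, sequence bias and effective length, and deposited 1 FPKM value per group. Corrections of this kind weigh most on short transcripts and on symbols with several rows. Per the methods of the study, genes that failed the comparison for low expression were removed. The shares of all rows are therefore shares of the rows kept. A listed gene without a row may have been removed or may carry another symbol. The deposited table also holds the authors' own fold changes, test statistics, p-values, q-values and calls, which were not used. No test was run, since no value per rat was used.

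Log2 ratios were computed as CORT divided by vehicle, without a pseudocount or filter. A symbol was represented by its row with the highest mean FPKM, or by all its rows where stated, and symbols were matched exactly. The members and the 13 other lists were chosen with earlier results of these data known. The genes named from each other list were the 4 with the highest mean FPKM and those with the highest and lowest ratio at 1 FPKM or more in both groups; some of them are not reported here, and Prx, Pmp2, Zfp57 and Rn60_20_0041.3 were named after the values were seen. No gene was named for a pattern like that of a member, because 2 group values give no measure of likeness. Promoter windows came from a RefSeq table on GRCr8. Counts and ratios were tested on simulated data. Python 3.11.15, numpy 2.4.6, pandas 2.3.3 and matplotlib 3.10.9 were used.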

Additional observations from a re-analysis of the deposited data

How the results depend on the processing

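A log2 ratio was taken to have moved when it shifted by over 0.1, and a count, share or level when it differed by over 1.5 times. Centring and both rescalings add a constant of -0.022, -0.090 or -0.0071 to every log2 ratio, under the limit of 0.1, so they could move no median and say nothing of its stability; those of the other lists were added after the data were seen. The median log2 ratio of the 9 genes stayed between -0.34 and -0.23 under pseudocounts, those constants, summing of rows, use of all rows and leaving out each gene in turn. The pseudocounts, at most 1 FPKM, were small beside the levels of these genes and could hardly move it. Summing left it unchanged, as the median gene, Cldn11, has 1 row. These settings too say little of its stability. The count of genes lower with CORT was 8 in the main setting and 8 or 9 in the others. The number at least 1.2-fold lower, 2 in the main setting, was 5 when centred on the median of all rows, 6 when rescaled to equal totals over all rows, and 6, 1 and 0 with limits of 1.1, 1.5 and 2-fold. Several genes lie close to the limit, which is why this count depends on it. The share of all rows at least 1.2-fold lower was 3.42% among rows at or above the lowest level of the 9 genes. The summed level of the 9 genes on the scale of transcripts per 1000000 was 10329 with vehicle and 7916 with CORT over all rows, and 10431 and 8467 without structural RNA rows; these differ from the FPKM sums by construction of the scale. No rat could be left out in turn, since each group has a single value. No paired analysis was possible because single rats have no column. The depth is unknown, and with it the precision of the lowest rows.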
